A study of Rattus norvegicus with 6 samples.

Results

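Connexins are the proteins of vertebrate gap junctions, and this account covers the connexin genes Gja1, Gja4, Gja5, Gjb1, Gjb2 and Gjb6 in rat spinal cord after contusion, a blunt blow to the exposed cord. Members were all probe sets whose single gene in the array's annotation was one of these 6 symbols, which gave 7 probe sets for 5 genes out of 8799 probe sets and 4736 named genes on the array. Gja5 had 3 probe sets, Gja1, Gja4, Gjb1 and Gjb2 had 1 each, and Gjb6 is not analysed here. The contused group was 3 arrays of total RNA from the injury epicenter at about thoracic segment 8, taken 35 days after injury. The uninjured group was 3 arrays from the matching location in uninjured animals. The labels name no strain, sex, age or impact force for either group, no sham operation and no elapsed time for the uninjured animals, and they do not say outright that each array had its own animal, so surgery and elapsed time cannot be told apart from the contusion, and the p-values rest on a spread between arrays that may be technical.

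A gap junction forms when hexamers of connexin subunits in the membranes of neighbouring cells dock, opening a channel through which ions and small metabolites pass. In the central nervous system, astrocytes are joined mainly through connexin 43 (Gja1) and connexin 30 (Gjb6), with connexin 26 (Gjb2) also described in them. Oligodendrocytes and Schwann cells carry connexin 32 (Gjb1), and astrocytes and oligodendrocytes are coupled to each other. Connexin 37 (Gja4) and connexin 40 (Gja5) are known from the walls of blood vessels. Connexin 43 and connexin 26 are also known from the meninges, the fibroblast-rich membranes around the cord.

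Of the 7 connexin probe sets, 2 rose (Gja1 and Gjb2), 1 fell (Gjb1) and 4 did not pass the threshold, an adjusted p of 0.05 in limma over all probe sets tested. That is 42.9% of the 7, against 17.4% of the 6705 probe sets tested on the array, of which 7.79% were higher and 9.59% lower after contusion. The count was 1 of 7, Gjb1 alone, without contused array 2, contused array 3, uninjured array 1 or uninjured array 3 and without the filter on dim probe sets, and 2 of 7 without contused array 1. All 7 lay above the floor on all 6 arrays. The floor is a signal of 61.6, below which values were not distinguished. Their median log2 change was 0.26, against -0.005 over all probe sets tested. Contused and uninjured arrays did not overlap for 6 of the 7 (4 higher and 2 lower in contused cord), as they did not for 34.8% of all probe sets tested.

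The stretches upstream of the annotated transcription starts are shown for the 3 genes that passed the threshold, because 2 of them moved one way and 1 the other. Each is the 250 bases before a RefSeq start in the GRCr8 assembly, read 5′ to 3′ along the gene's strand, with matches to 3 short motifs in capitals. The motifs searched were TGANTCA (the AP-1 site), ACAAAG (the core of SOX factor sites) and GGGCGG (the GC box), on both strands, and none of the matches overlapped.
Gja1, chr20:36302314-36302563, plus strand: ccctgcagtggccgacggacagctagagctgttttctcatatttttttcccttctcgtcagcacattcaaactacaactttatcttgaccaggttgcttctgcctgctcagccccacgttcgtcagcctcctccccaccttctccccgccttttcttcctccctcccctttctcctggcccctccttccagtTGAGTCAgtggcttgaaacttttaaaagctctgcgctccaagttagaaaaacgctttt
Gjb2, chr15:35381954-35382203, minus strand: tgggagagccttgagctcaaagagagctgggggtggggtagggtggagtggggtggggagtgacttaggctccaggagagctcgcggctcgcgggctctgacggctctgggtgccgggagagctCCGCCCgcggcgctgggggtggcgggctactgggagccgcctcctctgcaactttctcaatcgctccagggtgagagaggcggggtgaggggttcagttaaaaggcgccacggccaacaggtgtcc
Gjb1, chrX:70541595-70541844, plus strand: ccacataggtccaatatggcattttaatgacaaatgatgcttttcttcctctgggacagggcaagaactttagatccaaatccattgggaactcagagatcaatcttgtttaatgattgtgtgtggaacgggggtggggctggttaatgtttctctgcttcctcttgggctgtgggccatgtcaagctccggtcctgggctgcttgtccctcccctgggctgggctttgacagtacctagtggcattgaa
The Gja1 stretch held 1 AP-1 match, TGAGTCA, whose first base lies at position -58 from the start. The same letters occur in 6.34% of the 33469 promoter windows of this length. The Gjb2 stretch held 1 GC box on the opposite strand with its first base at -126, as do 30.5% of windows on either strand. The stretches of Gja4 and Gja5, which are not printed and whose genes did not pass, each held 1 as well, at -139 and -44. The Gjb1 stretch held none of the 3 motifs, and ACAAAG, present in 16.3% of windows, was found in none of the 3. The stretches of Gja1, Gjb2 and Gjb1 were 51.2%, 67.2% and 49.2% G and C. A match is a description of the letters, and binding was not measured here.

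Gja1, which encodes connexin 43, the main connexin of astrocytes, was higher in contused cord (probe set rc_AI029183_s_at). Its signal was 313, 369 and 391 on contused arrays 1, 2 and 3, against 202, 297 and 191 on uninjured arrays 1, 2 and 3. The groups did not overlap, but uninjured array 2 lay close below contused array 1. The means were 358 ± 40 in contused and 230 ± 58.4 in uninjured cord (SD, n = 3 each), a log2 change of 0.66 (SE 0.19, limma adjusted p = 0.0338). Of all probe sets tested, 5.09% had a larger rise. The call was lost when any single array other than uninjured array 2 was left out (adjusted p = 0.0512 to 0.113 with a contused array left out, 0.113 without uninjured array 1 and 0.144 without uninjured array 3). It was also lost when dim probe sets were not filtered out (adjusted p = 0.143). The log2 change stayed between 0.54 and 0.86 with 1 array left out.

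Gjb2, the gene of connexin 26, had the largest change among the 7 probe sets (X51615_g_at). That this probe set measures Gjb2 rests on the array's annotation, which assigns another probe set of the same source accession to a different gene, Pzp, and which assignment is right was not settled here. Its signal was 175, 284 and 256 on contused arrays 1, 2 and 3, against 105, 159 and 67.8 on uninjured arrays 1, 2 and 3. Here too every contused array lay above every uninjured one, contused array 1 was the lowest of its group and uninjured array 2 the highest of its group, and uninjured array 3 was just above the floor. Gjb2 averaged 239 ± 56.3 in contused and 111 ± 46.1 in uninjured cord (SD, n = 3 each). It was 2.24-fold higher, a log2 change of 1.16 (SE 0.29, limma adjusted p = 0.0187), and 1.42% of all probe sets tested had a larger rise. Leaving out contused array 2 or 3 or uninjured array 1 or 3 took the adjusted p to 0.0862, 0.0607, 0.053 and 0.0718, and it was 0.163 without the filter on dim probe sets. With 1 array left out, the log2 change ran from 0.85 to 1.47.

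Gjb1 moved the other way. It encodes connexin 32, the gap junction protein of myelinating cells, and gave signals of 470, 392 and 365 on contused arrays 1, 2 and 3, against 651, 765 and 725 on uninjured arrays 1, 2 and 3 (X04070_at). The highest contused array lay well below the lowest uninjured one. The means were 409 ± 54.3 in contused and 714 ± 57.6 in uninjured cord (SD, n = 3 each), a log2 change of -0.81 (SE 0.14, limma adjusted p = 0.00326). Only 4.03% of all probe sets tested had a larger fall. The call held under every alternative run, with an adjusted p of 0.00458 to 0.0209 with 1 array left out and of at most 0.0256 under the other settings.

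**Figure D1:**
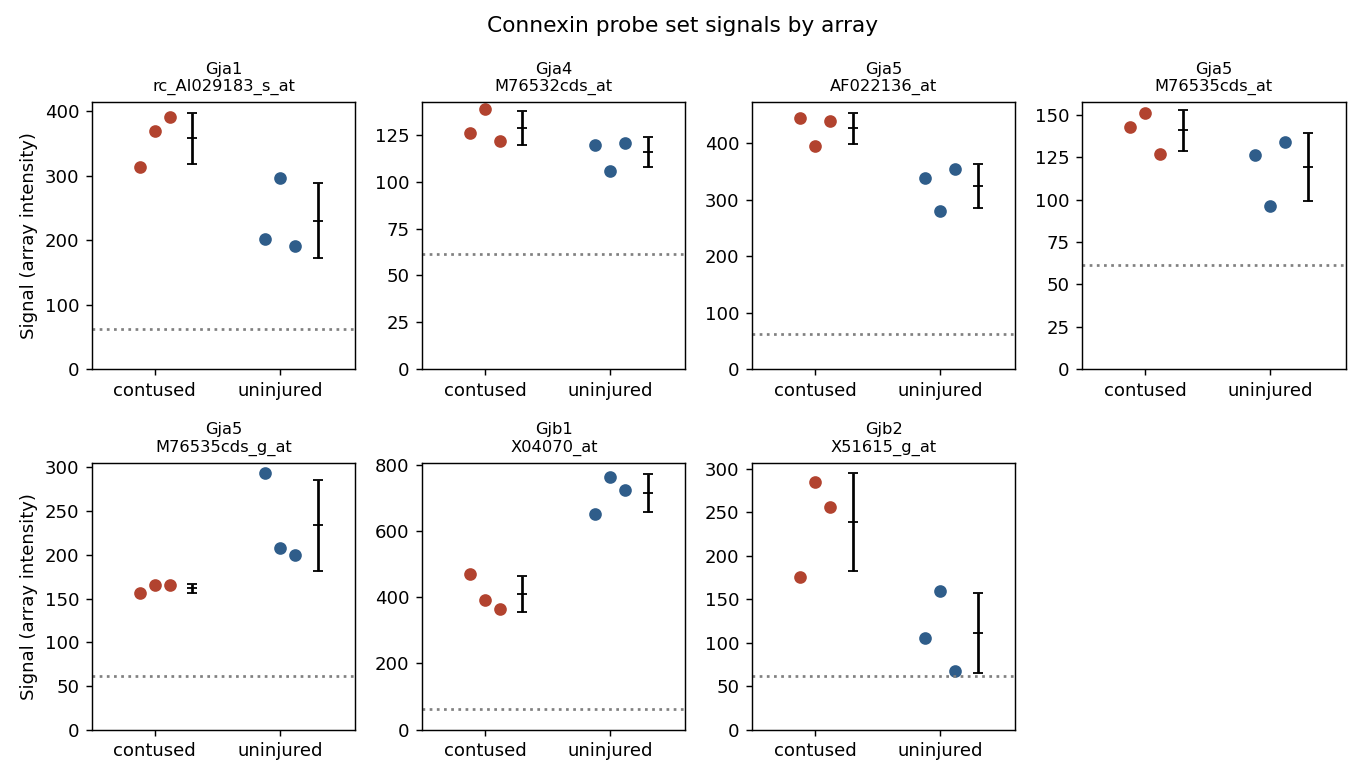
Signal (array intensity) of each connexin probe set on the contused and uninjured arrays, with each group's points running from replicate 1 to replicate 3. Bars are mean and SD of 3 arrays, and the dotted line is the floor at 61.6. Gja1 and Gjb2 lie higher and Gjb1 lower on all 3 contused arrays, and the 3 Gja5 probe sets do not move the same way.

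The changes of Gja1 and Gjb1 were set against each other within arrays. The log2 signal of Gja1 minus that of Gjb1 averaged -0.19 ± 0.35 in contused and -1.66 ± 0.28 in uninjured cord (SD, n = 3 each), and all contused arrays lay above all uninjured arrays. The 2 changes thus differed by 1.47 on the log2 scale, with an exact two-sided permutation p of 0.1, the smallest that 3 against 3 arrays allow. Because the probe sets are different, this is a difference between changes and says nothing of which gene has the higher level. Every contused array already lay above every uninjured one for Gja1 and below for Gjb1. The separation of the difference and its p therefore followed from those results and add nothing to them.

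The connexins of vessel walls did not pass the threshold. Gja4, the gene of connexin 37 (M76532cds_at), gave 126, 139 and 122 on the contused arrays, against 120, 106 and 121 on the uninjured arrays. The groups did not overlap, but contused array 3 and uninjured array 3 were nearly equal. The log2 change of 0.16 had a 95% interval of -0.15 to 0.46 (limma adjusted p = 0.5). The interval leaves out a rise or fall as large as that of Gjb1 or Gja1.

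The 3 probe sets of Gja5, the gene of connexin 40, disagreed in direction. AF022136_at gave 446, 396 and 440 on contused arrays, against 338, 281 and 355 on uninjured arrays, a log2 change of 0.4 (95% interval 0.09 to 0.72, limma adjusted p = 0.0805). M76535cds_g_at gave 156, 166 and 165 on contused arrays, against 294, 208 and 200 on uninjured arrays, a log2 change of -0.5 (interval -0.88 to -0.12, adjusted p = 0.0698). The contused and uninjured arrays did not overlap in either, in opposite directions. The third, M76535cds_at, which shares its source accession with the second, gave 143, 151 and 127 on contused arrays, against 126, 95.9 and 134 on uninjured arrays, with overlapping groups and a log2 change of 0.26 (interval -0.1 to 0.62, adjusted p = 0.329). The within-array log2 difference of AF022136_at minus M76535cds_g_at was 1.26 to 1.51 on contused arrays and 0.2 to 0.83 on uninjured arrays. No direction is therefore given for Gja5.

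Other gap junction genes from a list of 17 had 6 probe sets for 4 genes on the array. Of these probe sets 5 were tested and 0 passed (1 at an unadjusted p of 0.05 in limma). Of the 6705 probe sets tested on the array, 17.4% passed, and 939 were higher and 1090 lower at that unadjusted p. So few probe sets cannot set these genes apart from the rest of the array. Gjd2 encodes connexin 36, the connexin of electrical synapses between neurons. Its signal was 90.3, 142 and 131 on contused arrays, against 97.4, 62.4 and 103 on uninjured arrays, with overlapping groups and a log2 change of 0.47 (95% interval -0.02 to 0.97, adjusted p = 0.184). Gja3, a lens connexin (connexin 46), averaged 93.4 ± 23 in contused and 110 ± 12.4 in uninjured cord (SD, n = 3 each; log2 change -0.26, adjusted p = 0.363). The 3 probe sets of Gjb5 had log2 changes of 0.37 (the probe set with an unadjusted p of 0.018, adjusted p = 0.0819), 0.09 and -0.03. Gja6 lay below the floor on all 6 arrays.

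**Figure D2:**
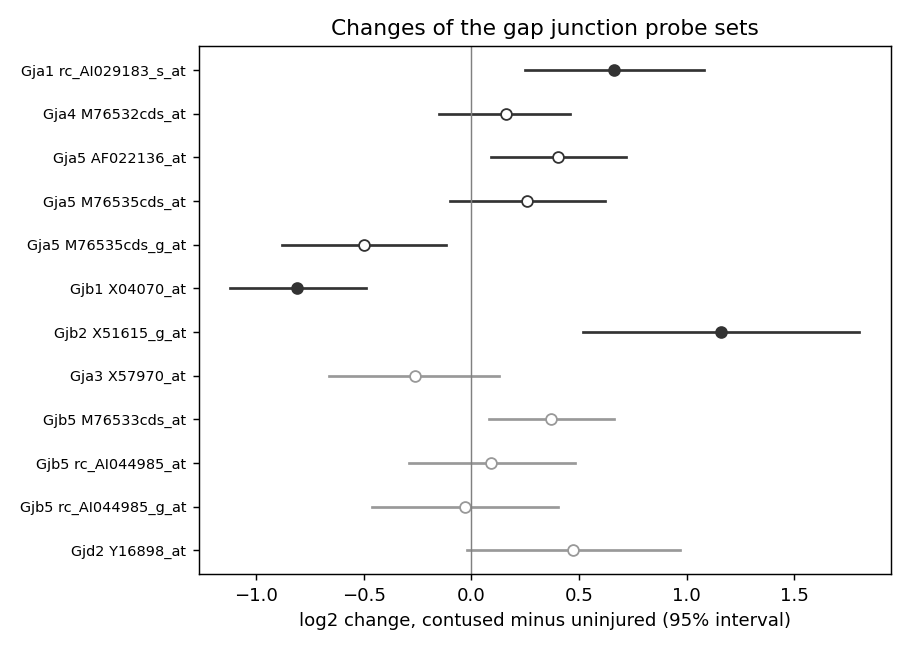
Log2 change (contused minus uninjured, x axis) of each tested connexin probe set with its 95% interval from limma. Members are dark and other gap junction genes grey, and filled points passed an adjusted p of 0.05. Gja1 and Gjb2 stand to the right of 0 and Gjb1 to the left, while 1 probe set of Gja5 lies on the opposite side from the other 2.

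Gap junction channels are anchored and gated by partner proteins and kinases. Of 18 tested genes on a list of these, 4 were higher and 1 was lower in contused cord (27.8% called, against 16.9% of the 3955 genes tested, 7% higher and 9.91% lower), with a median log2 change of -0.02. Ezr (ezrin, which ties membrane proteins to actin) averaged 289 ± 4.62 in contused and 171 ± 18.4 in uninjured cord (SD, n = 3 each; log2 change 0.76, adjusted p = 0.00445). Prkcd, a protein kinase C, a family that phosphorylates connexin 43, averaged 447 ± 28.8 in contused and 282 ± 22.6 in uninjured cord (log2 change 0.67, adjusted p = 0.00683). Prkaca, the catalytic subunit of protein kinase A, fell to 447 ± 33.4 in contused cord, against 738 ± 43.1 in uninjured cord (log2 change -0.73, adjusted p = 0.00315). The other risen genes, named after their values were seen, were the caveola protein gene Cav1 (log2 change 0.66) and the tyrosine phosphatase gene Ptpn1 (0.67). Tjp1 encodes ZO-1, the scaffold that binds the tail of connexin 43, and is named here after its value was seen. It gave 515 ± 99.5 in contused and 571 ± 39.2 in uninjured cord and did not pass (log2 change -0.17, adjusted p = 0.533). The count of higher genes was 2 without contused array 2, without uninjured array 3 or without the filter on dim probe sets. The counts also rest on the brightest probe set of each gene. Dbn1 did not pass by that one (log2 change -0.23, adjusted p = 0.305) but was lower by the dimmer AB015042_s_at (-0.4, adjusted p = 0.0346).

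The cells that carry these connexins were followed through marker genes. In bulk tissue, fewer cells of a type and less RNA per cell cannot be told apart. Each marker count stands beside the 16.9% of the 3955 genes tested that were called (7% higher and 9.91% lower). Of 20 listed astrocyte markers, 15 were tested. Gfap was listed but is not among them, because no probe set was assigned to it alone, so its change is not given here. Astrocyte markers gave 2 higher and 0 lower of 15 tested genes (13.3% called, median log2 change 0.09). These were Vim, an intermediate filament gene not limited to astrocytes (2464 ± 361 in contused and 965 ± 312 in uninjured cord, SD, n = 3 each), and Fabp7, a fatty acid-binding protein (log2 change 0.65, adjusted p = 0.0196). The astrocyte count was 1 when contused array 2, contused array 3, uninjured array 2 or uninjured array 3 was left out, and 0 without the filter on dim probe sets. At an unadjusted p of 0.05 in limma, 939 of the 6705 probe sets tested were higher and 1090 lower. Of the 15 astrocyte markers, 2 were higher and 2 lower at that level. The lower ones, named after their values were seen, were the GABA transporter gene Slc6a11 (log2 change -0.38, adjusted p = 0.105) and Ndrg2 (-0.28, adjusted p = 0.129). The summed signal of the astrocyte markers was 21546 to 22529 on contused and 19509 to 21272 on uninjured arrays, and 0 of the 15 genes lay at the floor on all arrays. Without Vim the sums, which do not include Gfap, overlapped, at 19471 to 19755 on contused and 18508 to 20015 on uninjured arrays.

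Oligodendrocyte and myelin markers fell in 5 of 11 tested genes and rose in 0 (45.5% called, against 16.9% of all genes tested). Their median log2 change was -0.42. Mog, a surface protein of myelin, had a log2 change of -0.87 and Enpp2 (autotaxin) of -0.67 (adjusted p = 0.00206 and 0.00318), beside -0.81 for Gjb1. The fall was not shared by the whole list. Mbp, Mag and Cnp, named after their values were seen, had log2 changes of 0, -0.12 and -0.12 (adjusted p = 0.986, 0.587 and 0.533). The summed signal of the 11 genes was 16750 to 17541 on contused and 20493 to 21554 on uninjured arrays. Of the uninjured arrays, array 2 was the highest and array 1 the lowest in both that sum and Gjb1. The contused arrays did not keep that order. Schwann cell markers, listed for the other myelinating cell with connexin 32, gave 0 of 9 past the threshold in limma. At an unadjusted p of 0.05, 2 of the 9 were higher and 0 lower, beside 939 higher and 1090 lower of the 6705 probe sets tested. Pmp22, the brightest of them, had a log2 change of 0.4 (adjusted p = 0.0507). The summed signal of the 9 genes was 6340 to 7221 on contused and 5568 to 5893 on uninjured arrays. The Schwann cell count was 2 with quantile normalization, and 1 with another floor or none, with trimmed-mean scaling, with log2(value + 50), with all arrays required above the floor, with the replicate block and without contused array 1, contused array 3 or uninjured array 2. Neuron markers fell in 11 of 11 tested genes, of which Thy1 and Dnm1 had the smallest p (log2 changes -1.77 and -1.27), and their part in the Gjb1 result was not tested.

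**Figure D3:**
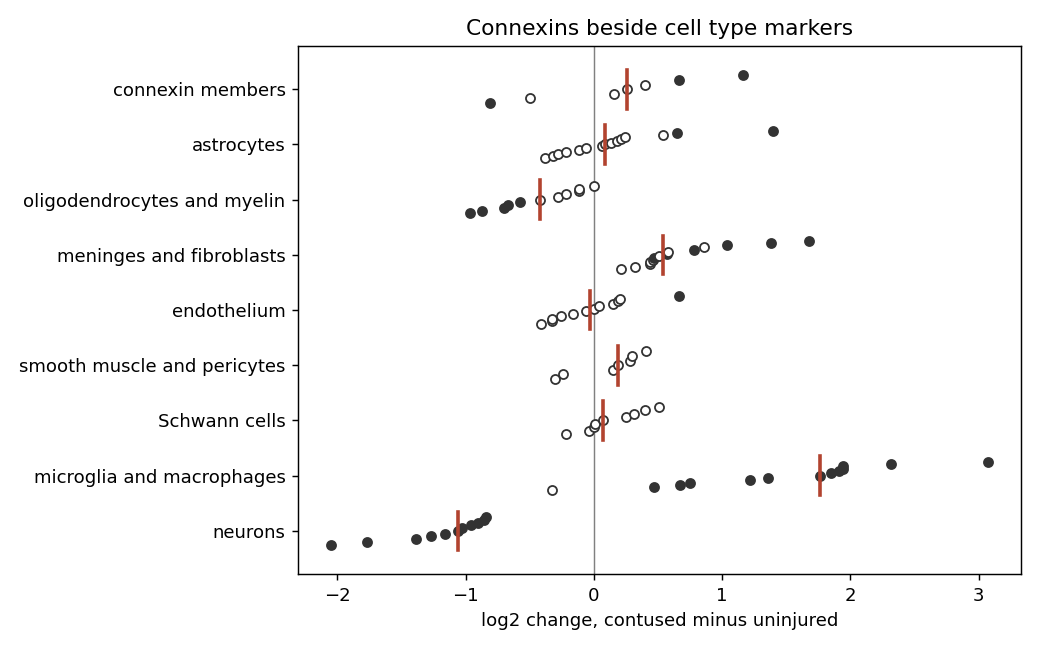
Log2 change (contused minus uninjured, x axis) of the connexin members and of marker genes of 8 cell types, 1 point per probe set or gene. Filled points passed an adjusted p of 0.05 and red bars are medians. The connexins spread to both sides of 0, microglia and macrophage markers lie mostly above it (median 1.76) and neuron markers below it (median -1.06).

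Markers of meninges and fibroblasts rose in 6 of 14 tested genes and fell in 0 (42.9% called, against 16.9% of all genes tested). Their median log2 change was 0.54, and 0 of them lay at the floor on all arrays. Fn1 (fibronectin) averaged 939 ± 85.1 in contused and 394 ± 187 in uninjured cord (SD, n = 3 each), and Igfbp2, which binds insulin-like growth factors, 855 ± 1.89 in contused and 578 ± 72.3 in uninjured cord. The count of 6 was 3, 1 and 3 without contused array 1, contused array 2 and uninjured array 3, and 1 without the filter on dim probe sets. The summed signal of the 14 genes was 13923, 16399 and 15306 on contused arrays 1, 2 and 3, against 10754, 11947 and 7106 on uninjured arrays 1, 2 and 3.

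Ranked by that sum, the arrays ran from contused 2 at the top through contused 3, contused 1, uninjured 2 and uninjured 1 to uninjured 3. Gjb2 ranked the 6 arrays in exactly this order, and Gja1 did so except that contused arrays 2 and 3 changed places. The order was not particular to the meningeal list. The sums of the microglia and macrophage list and of the ependymal list, which is mostly Vim, ranked the arrays in the same way, so 3 of the 12 lists shared the order of Gjb2. This is a description of 6 arrays in 2 groups. The sums are dominated by their brightest genes, and the part of meningeal and fibroblast RNA in the changes of Gjb2 and Gja1 was not tested. Microglia and macrophage markers also rose (12 of 13 higher and 0 lower, summed signal 11451, 12026 and 11767 on contused arrays 1, 2 and 3, against 4136, 4695 and 3759 on uninjured arrays 1, 2 and 3), led by Lgals3 (galectin-3) and Fcgr2b, an IgG receptor gene that lay at the floor on all uninjured arrays. The remaining tested gene of this list, Csf1r, named after its value was seen, had a log2 change of -0.33 and did not pass (adjusted p = 0.175). The part of microglia and macrophages in the changes of Gjb2 and Gja1 was not tested either.

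**Figure D4:**
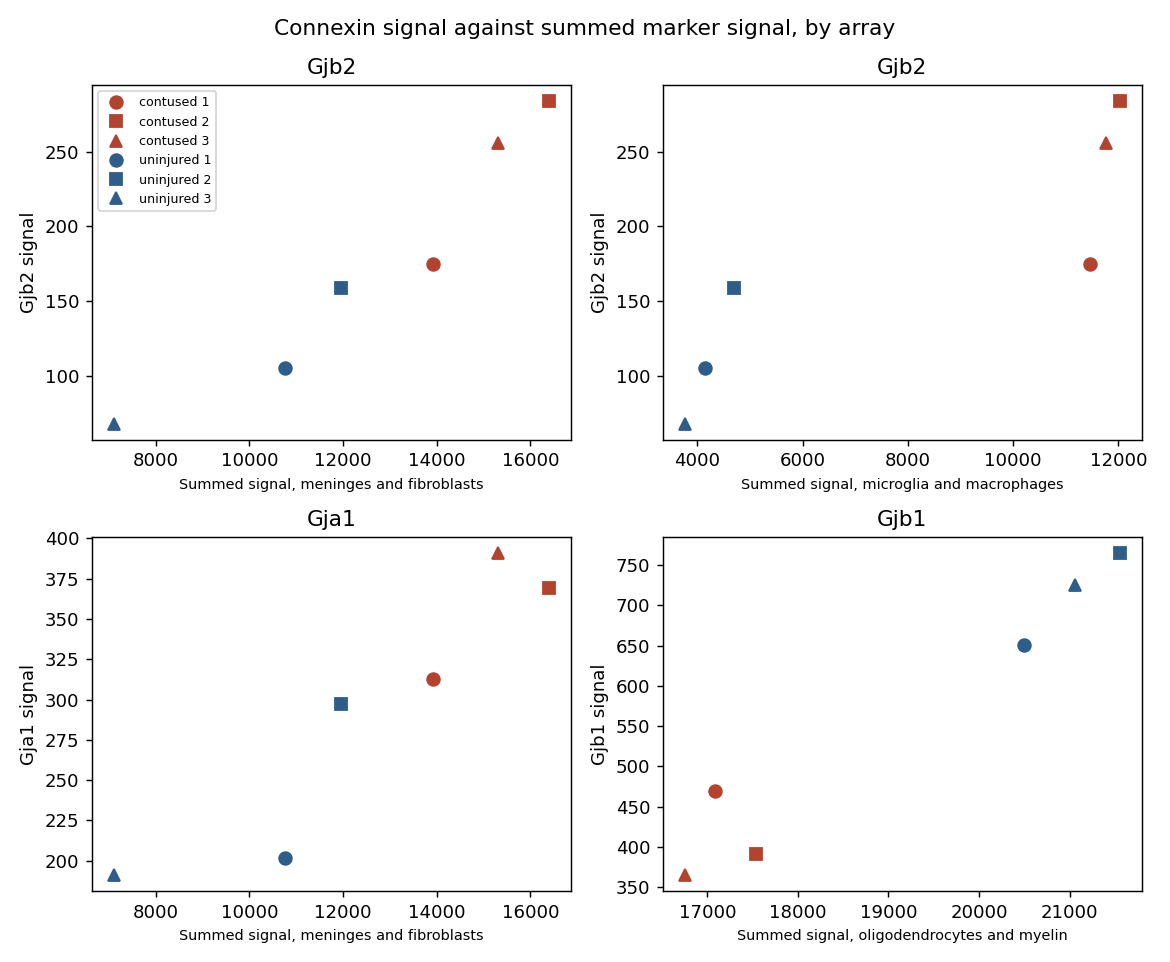
Signal of Gjb2, Gja1 and Gjb1 (y axes) against the summed signal of a marker list (x axes: meninges and fibroblasts for Gjb2 and Gja1, microglia and macrophages for Gjb2 again, oligodendrocytes and myelin for Gjb1), 1 point per array. Axes do not start at 0. Gjb2 keeps the order of the meningeal sum and of the microglia and macrophage sum over all 6 arrays, and for Gjb1 the contused arrays form a low cluster and the uninjured arrays a high one.

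Endothelial markers gave 1 higher and 0 lower of 12 tested genes (median log2 change -0.03). That is 8.33% called, against 16.9% of all genes tested (7% higher and 9.91% lower). The higher one, the adhesion molecule gene Vcam1, had a log2 change of 0.66 (adjusted p = 0.0196). Its call was lost without contused array 2 or 3, uninjured array 1 or 3 or the filter on dim probe sets, and with the pooled 50th percentile as the floor. At an unadjusted p of 0.05 in limma, 939 of the 6705 probe sets tested were higher and 1090 lower. Of the endothelial markers, 1 was higher and 2 were lower at that level. The lower ones, named after their values were seen, were Slc2a1 (log2 change -0.41, adjusted p = 0.066) and Abcb1a (-0.33, adjusted p = 0.134). Of smooth muscle and pericyte markers 0 of 7 passed in limma, also at an unadjusted p of 0.05 (median 0.19), and Cnn1 and Tpm2 lay at the floor on all arrays. The brightest, Vtn, had a log2 change of 0.15. Ependymal markers gave 1 of 3 higher, which was Vim again (0 without the filter). Of 6 tested genes on a list of hepatocytes, the cells in which connexins 32 and 26 are also well known, 1 was higher (16.7% called). This was Alb (log2 change 0.52, adjusted p = 0.0253), a call lost without contused array 2 or 3, uninjured array 1 or 2 or the filter, and absent with that higher floor or with all arrays required above the floor.

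The genes closest in pattern were sought among 3950 other genes by Pearson correlation of log2 signals over the 6 arrays. With 2 groups of 3, such a correlation is in large part the difference between the groups, and it is given as a description. For Gjb2 these were Serp1 (r = 0.996), Efemp1 (0.9934) and C1r (0.9928). Efemp1, which encodes a matrix glycoprotein, and C1r, a complement protease gene, had log2 changes of 1.47 and 1.34. For Gja1 they were Galnt1 (r = 0.9888), Plod1 (0.9884) and Lxn (0.9869), and Plod1, a collagen-modifying enzyme gene, had a log2 change of 0.65. For Gjb1 they were the synaptic vesicle gene Syp (r = 0.992), the cholesterol synthesis gene Fdft1 (0.9901) and Selenow (0.9895), with log2 changes of -0.96, -0.73 and -0.69. The number of genes with r over 0.9 was 290 for Gjb1, 171 for Gja1 and 163 for Gjb2, against 37 for Gja4. For Gja4 the closest were Stx5 (r = 0.9805), Kifc1 (0.9625) and Mip (0.9587). For the Gja5 probe set AF022136_at they were RT1-M5 (r = 0.9953), Htr4 (0.9873) and Rhox5 (0.9821), for M76535cds_at Clec4f (0.9856), Kcnj9 (0.9819) and Fggy (0.9794), and for M76535cds_g_at Krt20 (0.9822), Rph3a (0.9808) and Timm29 (0.9653). The 3 Gja5 probe sets had no gene in common among these.

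The arrays had medians of 122.1 to 126.9, with 73.15% to 76.02% of their probe sets brighter than the floor. Log2 signals correlated across probe sets at 0.958 to 0.977 within groups and 0.91 to 0.932 between groups. The number of arrays limits the precision.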

How the data were processed

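For each of the 3 contused and 3 uninjured samples, the deposited table gives every probe set an intensity, read as linear from the deposited values themselves. No source used here says how the authors summarised probes, removed background or scaled the arrays. Trimmed means per array (2% at each end) spread by 8.54%, under a limit of 10%, so values were used as deposited. Of 8799 probe sets, 59 controls were left out, and 0 columns belonged to other samples. The array's annotation supplied the gene names, and 6985 of 7006 singly annotated probe sets matched the GRCr8 gene table.

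Values under the pooled 25th percentile (61.6, or 5.94 on the log2 scale) were set to it, and 6705 probe sets with at least 3 of 6 arrays above it went into a limma fit (limma 3.58.1, R 4.3.3, lmFit and eBayes with an intensity trend) of contused minus uninjured with no further term. Two-sided p-values from limma were adjusted by Benjamini-Hochberg over all 6705, with a threshold of 0.05. SEs and 95% intervals are limma's, and SDs are over arrays. A gene in a list is represented by its brightest tested probe set. The procedure was also run on simulated data, with changes planted only in probe sets well above the floor and larger than those of Gja1 and Gjb1. That run does not cover dim probe sets such as that of Gjb2. Plots and summaries used Python 3.11.15, pandas 2.3.3 and matplotlib 3.10.9.

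All member probe sets were described. Named besides them are the 3 genes most alike each member probe set, all tested genes of the other gap junction list, and up to 2 risen and 2 fallen genes per marker list (or the brightest where none passed). The members and lists were chosen with earlier results of these data known. Alternatives were another floor or none, other filters, quantile or trimmed-mean scaling, log2(value + 50), no trend, a replicate block and leaving out each array. Promoter windows are RefSeq sequences of GRCr8, and no source used here gives the build behind the array.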

Additional observations from a re-analysis of the deposited data

How the results depend on the processing

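No value reversed. Gjb1, Gja4 and the 3 Gja5 probe sets kept their direction and their side of the threshold under every alternative that tested them (Gja4 was not tested when the pooled 50th percentile served as the floor). Without the filter on dim probe sets, Gja1 (log2 change 0.66, adjusted p = 0.143) and Gjb2 (1.16, adjusted p = 0.163) lost their calls, which left 1 connexin probe set and 660 probe sets in all past the threshold, and the cause was not tested. Under the other settings that kept all arrays, 3 connexin probe sets passed. With 1 array left out, 1 to 3 connexin probe sets and 659 to 1260 in all passed, against 3 and 1165 with all arrays. The log2 change then ran from 0.54 to 0.86 for Gja1, 0.85 to 1.47 for Gjb2 and -0.91 to -0.73 for Gjb1. The counts without contused array 2 or uninjured array 3 were 723 and 659 in all. The difference between the Gja1 and Gjb1 changes was 1.3 to 1.67, with an exact permutation p of 0.1 throughout, which in this design says nothing about stability. With the replicate block, 3 connexin probe sets and 1200 in all passed, and the limma adjusted p was 0.0226 for Gja1 and 0.00452 for Gjb2. Same-numbered arrays deviated together at r = 0.0415, 0.222 and -0.244 for numbers 1, 2 and 3. Only contused array 2 was closest to the uninjured array of its own number. With 3 arrays per group, these values cannot settle whether the numbers pair the arrays. The recounts of marker lists under each setting were chosen after seeing the data. Signals near the floor, such as Gjb2 on uninjured array 3 (67.8), limit how well a fold can be measured.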

Other observations

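The probe set named X51615_at carries the same source accession as the Gjb2 probe set X51615_g_at, but the annotation assigns it to Pzp. It lay below the floor on all 6 arrays, at 5.62, 5.23 and 6.38 on contused and 2.69, 2.57 and 1.35 on uninjured arrays, so the change given for Gjb2 rests on 1 probe set and on its annotation.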
